A study of Mus musculus with 24 samples.

Results

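Genes that cells switch on in answer to interferon-gamma were followed in mouse heart muscle over 24 h: the immunity-related GTPases Igtp, Irgm1, Irgm2 and Iigp1, the guanylate-binding protein Gbp10, the chemokines Cxcl9 and Cxcl10, and the transcription factor Irf1. They were taken from a list of 9 genes as those with a probe set that named them alone, which left 8 genes with 1 probe set each, among 22180 genes measured. The ninth, Gbp2, had 1 probe set, which also named Gbp2b, so Gbp2 was not analysed here. All mice were wildtype C57Bl/6 males aged 8 weeks, and their lights were on for 12 h and off for 12 h. Zeitgeber time (ZT) counts the hours from lights-on, so ZT03, ZT07 and ZT11 fall in the light phase and the other times, ZT15, ZT19 and ZT23, in the dark phase. Each time had 4 Affymetrix arrays, which the labels call biological replicates, and no group was treated.

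Interferon-gamma, made mainly by T cells and natural killer cells, binds a receptor that signals through the kinases JAK1 and JAK2. The signal reaches GAS elements in promoters, and the product of one early target, IRF1, binds the related ISRE and IRF sites of further genes. Immunity-related GTPases and guanylate-binding proteins gather on the vacuoles of intracellular pathogens, and CXCL9 and CXCL10 draw in T cells and natural killer cells through the receptor CXCR3.

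Sequences upstream of 6 of the 8 genes are shown because they hold, or lack, the letters of the elements through which interferon signals are known to act. They are from RefSeq, build GRCm38.p6, and read 5′ to 3′ on the gene's own strand. Capitals mark matches, on either strand, to TTCNNNGAA (the core of a GAS element) or to a pair of GAAA with any 2 bases between them (the core of an ISRE). The stretches are the last 120 bases before the annotated start of Igtp (chr11:58199436-58199555, plus strand), Irgm2 (chr11:58214857-58214976, plus strand), Irgm1 (chr11:48871421-48871540, minus strand) and Irf1 (chr11:53769894-53770013, plus strand). For the chemokines they are the last 250 bases, for Cxcl9 (chr5:92328080-92328329, minus strand) and Cxcl10 (chr5:92348890-92349139, minus strand).
Igtp: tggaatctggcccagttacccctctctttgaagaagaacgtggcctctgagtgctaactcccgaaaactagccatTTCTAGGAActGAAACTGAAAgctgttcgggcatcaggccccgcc
Irgm2: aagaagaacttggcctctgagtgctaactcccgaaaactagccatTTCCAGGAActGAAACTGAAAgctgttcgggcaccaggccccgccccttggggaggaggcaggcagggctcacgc
Irgm1: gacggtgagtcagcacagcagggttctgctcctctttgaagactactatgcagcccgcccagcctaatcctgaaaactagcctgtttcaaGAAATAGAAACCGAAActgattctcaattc
Irf1: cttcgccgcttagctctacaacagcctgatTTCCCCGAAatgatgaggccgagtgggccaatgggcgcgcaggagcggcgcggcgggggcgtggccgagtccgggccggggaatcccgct
Cxcl9: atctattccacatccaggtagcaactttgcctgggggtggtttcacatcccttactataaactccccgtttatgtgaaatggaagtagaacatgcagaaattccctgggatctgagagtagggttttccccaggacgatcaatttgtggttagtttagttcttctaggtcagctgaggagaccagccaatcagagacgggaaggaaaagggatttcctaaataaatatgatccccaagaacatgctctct
Cxcl10: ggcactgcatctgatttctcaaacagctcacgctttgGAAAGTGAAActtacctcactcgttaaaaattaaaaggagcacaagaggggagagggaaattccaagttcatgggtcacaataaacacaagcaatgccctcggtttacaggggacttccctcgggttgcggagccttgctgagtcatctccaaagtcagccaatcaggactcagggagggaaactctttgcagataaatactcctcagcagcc

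The search covered windows of 300 bases, from 250 before to 50 after a start. Igtp and Irgm2, which are neighbours on chromosome 11, both had a GAS match followed by an ISRE match. With the start base counted as 0, these lay at -45 to -37 and -34 to -25 in Igtp, and at -75 to -67 and -64 to -55 in Irgm2. The longest stretch that the windows of Igtp and Irgm2 share without a difference is 61 bases. It lies at -11 to 49 in Igtp and at -41 to 19 in Irgm2, and so does not hold the matches. Of 32851 mouse windows, 8.30% held a GAS match, 3.44% an ISRE match and 0.454% both. Irgm1 had 2 overlapping ISRE matches between -30 and -15, Cxcl10 1 at -213 to -204, and Irf1 a GAS match at -90 to -82. A second annotated start of Irf1 had no match, and neither did the window of Cxcl9, which says only that these letters are not there. A match is a description of letters and not a bound site.

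**Figure D1:**
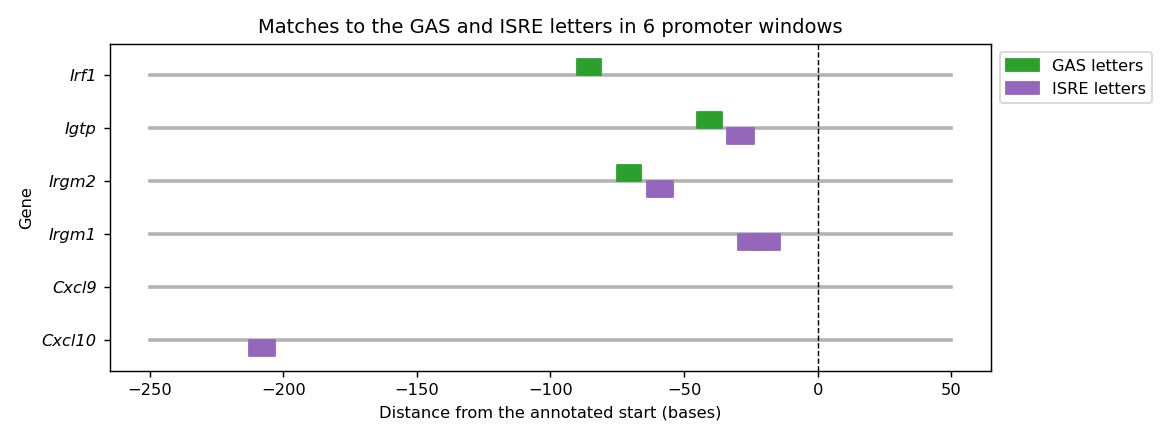
Position of matches to the GAS letters (green) and ISRE letters (purple) in the promoter windows of 6 genes, in bases from the annotated start (dashed line). Igtp and Irgm2 have a GAS match next to an ISRE match, Irgm1 has 2 overlapping ISRE matches, and Cxcl9 has none.

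Values are read as log2 differences from a gene's own median over the 24 arrays. Folds rest on the assumption that the logarithm has base 2, which the sources do not say. A level is not kept, so genes cannot be ranked by abundance and the presence of heart muscle markers could not be checked. The SD over all probe sets of an array lay between 0.103 and 0.171, and the labels name no batch. A batch that the arrays of a time had in common and the time itself cannot be told apart. The tissue was bulk, so a change in the number of cells of a type and a change in RNA per cell cannot be told apart. The 8 genes were chosen with earlier results of these data known, and the rule does not say which values it used. Their differences over time and their co-variation are therefore given as a description, and nothing is read from a test of them.

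Across the day the 8 genes were on average higher in the light than in the dark. Iigp1 and Cxcl9 showed the widest swings, Igtp and Irgm2 were raised mainly on 3 arrays, and Cxcl10 hardly moved. The difference of the dark from the light mean was below 0 in 8 of 8 genes, where 48.1% of all genes were below 0. Its median was -0.21 in the 8 genes and 0.0021 over all genes.

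Iigp1, which encodes the GTPase Irga6, had values of 0.014, 0.31, 0.11 and -0.013 on the ZT03 arrays, of 0.24, 0.80, 0.73 and 0.28 on the ZT07 arrays and of 0.48, 0.013, 1.36 and -0.13 on the ZT11 arrays. Its dark phase values were lower, with 0.06, -0.22, -0.21 and -0.18 (ZT15), -0.50, -0.13, 0.16 and -0.23 (ZT19) and -0.47, -0.19, -0.34 and -0.54 (ZT23). Every ZT07 array lay above every dark array, and the ZT11 arrays held both the lowest and the highest light value. Of 12 dark arrays, 9 lay below the lowest light array. The mean was 0.51 ± 0.29 (SD, n = 4) at ZT07 and -0.39 ± 0.16 (SD, n = 4) at ZT23, a 1.86-fold difference. A 24-h cosine fitted to the 24 arrays had an amplitude of 0.44 ± 0.089 (SE), a peak-to-trough ratio of 1.84, and its peak at ZT 8.48. The dark minus light difference was -0.58 ± 0.127 (SE), and -0.48 without ZT11 replicate 3, the array highest in Iigp1.

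Cxcl9, the CXCR3 ligand whose induction depends closely on interferon-gamma, had values of 0.29, -0.087, 0.072 and -0.13 on the ZT03 arrays, of 0.13, 0.36, 0.55 and 0.15 on the ZT07 arrays and of 0.22, 0.30, 1.00 and 0.19 on the ZT11 arrays. It had 0.026, 0.0089, -0.35 and -0.23 on those of ZT15, -0.45, -0.45, -0.14 and -0.036 on those of ZT19, and -0.18, -0.38, -0.57 and -0.0089 on those of ZT23. All ZT07 and ZT11 arrays lay above all 12 dark arrays, and 10 of 12 light arrays lay above the highest dark array. The mean was highest at ZT11 (0.43 ± 0.38, SD, n = 4) and lowest at ZT23 (-0.28 ± 0.24), a 1.64-fold difference. Without ZT11 replicate 3 the ZT11 mean was 0.24 ± 0.055 (SD, n = 3), still above every dark array. The cosine had an amplitude of 0.37 ± 0.065 (SE), a peak-to-trough ratio of 1.67 and a peak at ZT 8.65. Dark minus light was -0.48 ± 0.093 (SE), and -0.42 without ZT11 replicate 3.

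Igtp, also called Irgm3, is a regulatory GTPase of the family. Light phase arrays had -0.0098, 0.18, 0.21 and 0.09 (ZT03), 0.12, 0.56, 0.56 and -0.072 (ZT07) and 0.24, -0.0006, 1.45 and -0.13 (ZT11). Dark phase arrays had -0.069, -0.03, 0.25 and -0.039 (ZT15), 0.062, -0.20, 0.20 and 0.0006 (ZT19) and -0.11, -0.059, -0.15 and -0.16 (ZT23). Only 3 light arrays, ZT11 replicate 3 and ZT07 replicates 2 and 3, lay above the highest dark array, and light and dark otherwise overlapped. Dark minus light was -0.29 ± 0.128 (SE), and -0.17 without ZT11 replicate 3.

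Irgm2, a second regulatory GTPase, had light phase values of -0.24, 0.21, 0.035 and 0.12 (ZT03), 0.085, 0.59, 0.52 and -0.10 (ZT07) and 0.21, 0.0063, 1.27 and -0.27 (ZT11). Its dark phase values were -0.16, 0.076, -0.073 and -0.19 (ZT15), -0.13, -0.0084, 0.032 and -0.31 (ZT19) and -0.15, 0.0095, -0.0063 and -0.20 (ZT23). The same 3 arrays stood highest as in Igtp, and 7 of 12 light arrays lay above the highest dark array. Dark minus light was -0.30 ± 0.125 (SE), and -0.19 without ZT11 replicate 3.

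Gbp10, of the guanylate-binding proteins, went another way over the day. Its light phase values were -0.11, 0.25, 0.011 and -0.14 (ZT03), -0.087, 0.18, 0.50 and -0.32 (ZT07) and 0.059, -0.34, 1.25 and -0.28 (ZT11). Its dark phase values were -0.62, 0.27, -0.19 and -0.28 (ZT15), -0.011, 0.22, 0.39 and -0.16 (ZT19) and 0.10, 0.27, 0.057 and -0.026 (ZT23). The 6 times overlapped, and 11.5% of the variance of Gbp10 lay between times, against a median of 25.3% over all genes. Dark minus light was -0.080 ± 0.147 (SE) and turned to 0.040 without ZT11 replicate 3, so its direction rests on that array. Gbp10 lies among Gbp4, Gbp6, Gbp8, Gbp9 and Gbp11 on chromosome 5, and whether its probe set also reads a similar neighbour was not tested.

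Irgm1, the third regulatory GTPase, moved less, between -0.36 and 0.41 on single arrays, and its time means overlapped within their spread, from -0.11 ± 0.19 (SD) at ZT19 to 0.11 ± 0.22 at ZT11. Irf1 ran from -0.31 on ZT19 replicate 2 to 0.37 on ZT15 replicate 1. All 4 ZT19 arrays of Irf1 (-0.21, -0.31, -0.081 and -0.10) lay below all 4 ZT11 arrays (0.15, 0.053, 0.24 and 0.037), and its dark minus light difference was -0.12 ± 0.049 (SE). Cxcl10, near Cxcl9 on the chromosome and also a CXCR3 ligand, stayed between -0.14 and 0.18 on every array, with a dark minus light difference of -0.029 ± 0.0351 (SE). The cosine peaks lay between ZT 8.38 and ZT 9.48 in 7 of 8 genes and at ZT 3.71 in Gbp10. The amplitude of Gbp10 was 0.051 ± 0.103 (SE), smaller than its error, and 0.14 without ZT11 replicate 3.

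**Figure D2:**
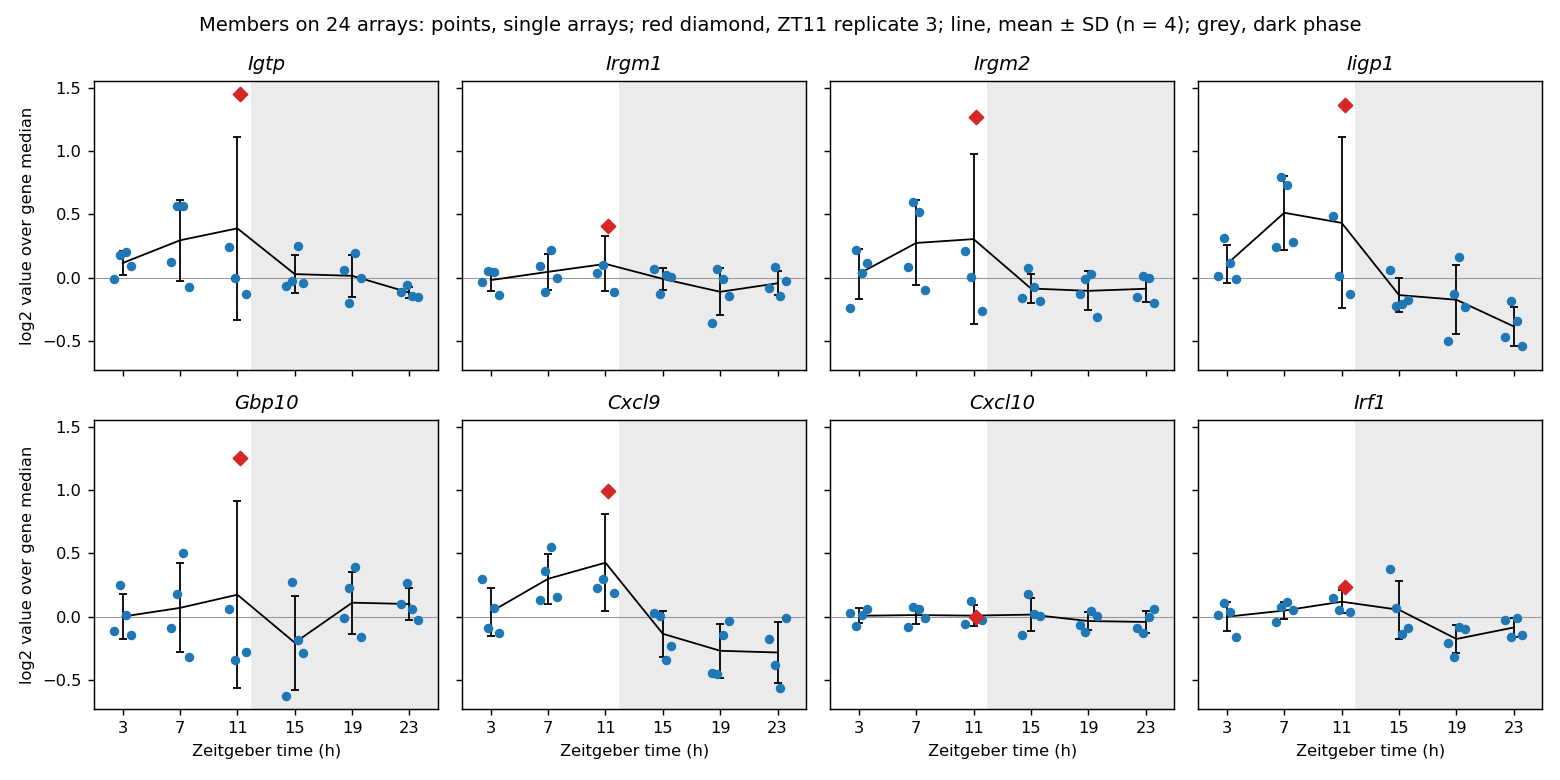
Log2 value over the gene's median (y axis) against zeitgeber time in hours (x axis) for 8 genes, with 1 point per array, the mean ± SD of 4 arrays as the line and bars, and the dark phase in grey. The red diamond is ZT11 replicate 3, the highest of 24 arrays for Igtp, Irgm1, Irgm2, Iigp1, Gbp10 and Cxcl9, and Cxcl10 stays within -0.14 and 0.18.

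In limma's moderated tests, adjusted over all genes at 0.05, 1 of the 8 genes differed among the 6 times (Cxcl9), where 4.72% of all genes did. A 24-h rhythm was called in 2 of 8 (Iigp1 and Cxcl9), where 7.61% of all genes were called, and both peaked in the light, as 3.83% of all genes did. Dark and light differed in the same 2, both lower in the dark, where 4.39% of all genes differed and 2.49% were lower. Since these genes may have been chosen on such differences, the counts are given as a description only. Without ZT11 replicate 3, Iigp1 also differed among the times, which made the count 2 of 8, and the other 2 counts did not move. The share of variance between times was 62.2% for Cxcl9, 55.6% for Iigp1 and 44.2% for Irf1, and 8.73% for Cxcl10. It lay between 11.5% and 26.5% for Igtp, Irgm1, Irgm2 and Gbp10, near the median of all genes or below it.

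Cell markers that moved with the light and the dark are given beside this. Their lists, and the gene lists used below, were chosen with earlier results of these data known. Their counts and adjusted p are therefore no independent test. Of 12 macrophage markers, 5 were higher in the dark and 0 lower, and their mean per array ran from -0.24 to 0.091 in the light and from -0.080 to 0.18 in the dark. Of 7 platelet markers, 5 were higher in the dark and 0 lower, and their means (-0.25 to -0.043 in the light and -0.0067 to 0.94 in the dark) did not overlap. Background shares were 1.89% of all genes higher in the dark and 2.49% lower. Of 16 markers of T and natural killer cells, 0 were called in limma for time, rhythm or dark against light. Of all genes 4.72%, 7.61% and 4.39% were called so. Of the 16, 2, 1 and 0 had an unadjusted p below 0.05. Of 10 cardiomyocyte markers 2 were lower in the dark and 0 higher, and of 10 fibroblast markers 2 were lower and 1 higher. Endothelium (12 markers) and monocytes and dendritic cells (8 markers) had 1 higher each and 0 lower. Whether these cells play a part in the values of the 8 genes was not tested, and which markers are near 0 cannot be read from centred values.

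Among single arrays, ZT11 replicate 3 stood apart in these genes. Igtp was 2.73-fold over its median there, Iigp1 2.58-fold, Irgm2 2.41-fold and Gbp10 2.38-fold. It was the highest of 24 arrays for 6 of 8 genes, the second highest for Irf1 and the fourteenth for Cxcl10, while 3.55% of all genes had their highest value there. The mean of the 8 genes was 0.87 on it, followed by 0.41 on ZT07 replicate 3, 0.32 on ZT07 replicate 2 and 0.17 on ZT11 replicate 1. The other ZT11 arrays had 0.031 and -0.090, and dark arrays lay between -0.21 and 0.074. The 4 arrays of ZT11 thus held both the highest of all 24 values and, in replicates 2 and 4, values within the dark range.

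Only 12 of 22180 genes reached a log2 value of 1 on that array, and 4 of them were Igtp, Iigp1, Irgm2 and Gbp10. On the other arrays between 1 and 14 genes did, with a median of 3 and none of the 8 genes among them. Among the other 8 genes on ZT11 replicate 3 were 3 neighbours of Iigp1 on chromosome 18, named after their values were seen. Gm4841 (also Ifgga3) was at 2.42, a 5.36-fold value, F830016B08Rik (also Ifgga4) at 2.39 and BC023105, annotated as a pseudogene, at 2.10. The second highest array of each was ZT07 replicate 3, at 0.54, 0.61 and 0.46. Iigp1 is Ifgga1 in the same gene group, and whether the probe sets of such relatives read each other was not tested. The clock genes Per1, Dbp and Ciart were also past 1 there, at 1.22, 1.17 and 1.24, with Lncpint and Snord71.

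After the time means were removed, Igtp, Irgm2, Iigp1 and Gbp10 varied together from array to array. They were set apart from the other members after the data were seen, so their high correlations are partly a product of that choice. Their 6 pairwise correlations over 24 arrays lay between 0.799 and 0.915 (Pearson), and still between 0.535 and 0.763 without ZT11 replicate 3. The closest pair was Igtp with Irgm2 (r = 0.91, Spearman rho = 0.77, and r = 0.75 without that array). Irgm2 with Gbp10 followed, with r = 0.90, rho = 0.87, and r = 0.76 without it. Both genes of a pair are read on the same arrays, and the genes were chosen with earlier results of these data known. A correlation therefore describes these arrays and carries no test.

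The correlation of Cxcl9 with these GTPases rested largely on ZT11 replicate 3. Its correlation with Irgm2 was 0.49 with that array and -0.04 without it, and with Igtp it was 0.62 and 0.19. With Irf1 it was 0.51 and 0.46, and with Cxcl10 0.25 and 0.36. Irgm1 was closest to Iigp1, at 0.68 and 0.47. Cxcl10 had a mean r of 0.0061 with the other 7 genes, and Irf1 0.25.

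Over all 28 pairs the mean r was 0.43, with 25 pairs above 0 and a range from -0.24 to 0.91. It was 0.26 without ZT11 replicate 3. It was 0.28 when each pair was taken without the 2 arrays farthest from the median of its first gene, in the order of the opening. The mean Spearman rho was 0.37, and 0.28 without that array. The average gene outside the 8 had a mean r with them of 0.0015, an average in which positive and negative genes cancel. Single genes outside the 8 ran from -0.54 to 0.65 in this mean r. The spread among arrays of a time was wide in some of the genes, with a pooled SD of 0.39 in Gbp10, 0.34 in Igtp and Iigp1, 0.33 in Irgm2 and 0.24 in Cxcl9. The pooled SD was 0.15 in Irgm1, 0.13 in Irf1 and 0.088 in Cxcl10, against a median of 0.096 over all genes. Without ZT11 replicate 3 it was 0.27 in Gbp10, 0.18 in Igtp, 0.23 in Iigp1, 0.20 in Irgm2 and 0.19 in Cxcl9. These SDs exceeded those of at least 95.7% of all genes, computed without that array. Those of Irgm1, Irf1 and Cxcl10 exceeded 74.1%, 75.6% and 44.0%.

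**Figure D3:**
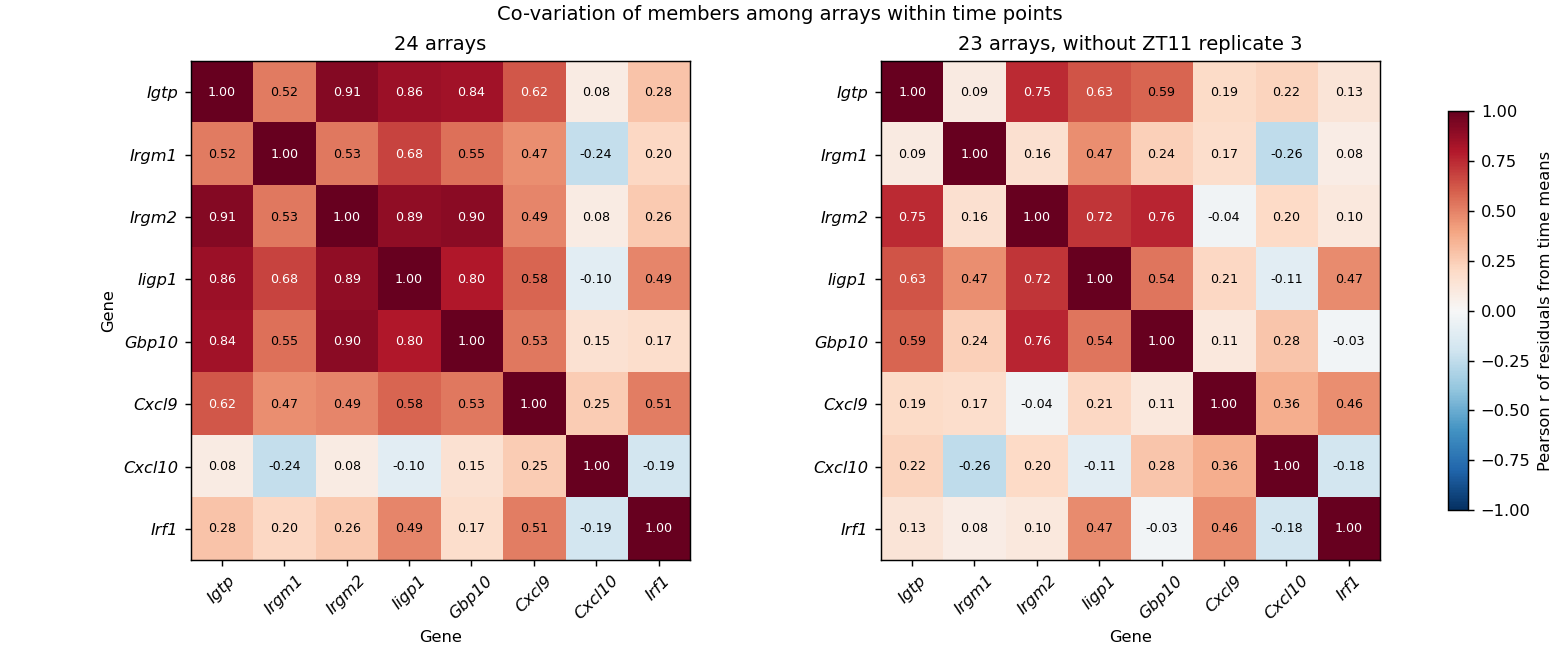
Pearson r between 8 genes after subtracting each gene's time mean (colour and printed value), over 24 arrays on the left and over 23 arrays without ZT11 replicate 3 on the right. Igtp, Irgm2, Iigp1 and Gbp10 form the block of high values in both, while Cxcl9 with Irgm2 goes from 0.49 to -0.04.

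The genes outside the 8 whose values followed the mean of the 8 most closely within times were led by copies and relatives of the GTPases. By the measure of likeness, Pearson r with the mean log2 residual of the 8 over 24 arrays, the 12 named genes were BC023105 (0.94), F830016B08Rik (0.92), Gbp3 (0.83), Rwdd3 (0.82), Gucy2e (0.80), Olfr29-ps1 (0.79), Tap1 (0.74), B2m (0.73), Vmn1r204 (0.73), Nlrc5 (0.72), Dcst2 (0.72) and H2-Ab1 (0.71). Of these, 6 stood on the lists of interferon or antigen presentation genes: F830016B08Rik, Gbp3, Tap1 and Nlrc5 with B2m and H2-Ab1. Predicted genes were counted and not ranked, 6 of them, among which Gm12185 (also Irgb2b1), Gm12250 (also Irgb10, next to Igtp) and Gm4951 (also Ifgga2) are GTPase genes too.

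The ranking leaned on ZT11 replicate 3, since 3 of the 12 (BC023105, B2m and H2-Ab1) were among the 12 most alike without it. B2m, the light chain of class I molecules, then came first (r = 0.79), and H2-Aa, an alpha chain of class II, entered (0.75). Vmn1r204 was then at -0.0085 and Nlrc5, the class I transactivator, at 0.31. The other 8 that entered were Rbm8a, Syt10, Usp35, Gsap, Rasal1, Bsnd, Fam102a and Mab21l3. The 4 named genes least alike were Prxl2b (-0.74), St6galnac2 (-0.67), Nat3 (-0.67) and Stk32c (-0.66).

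Upstream of the 8 genes, the ligand Ifng itself stayed at -0.0064 on ZT11 replicate 3, the fourteenth highest of 24 arrays, and its amplitude over the day was 0.0084 ± 0.0173 (SE). Centred values do not tell whether the Ifng probe set read above background. These values therefore do not show that the ligand was unchanged. Of 14 measured genes for the ligand, receptor and JAK-STAT signalling, 1 differed among the times in limma (4.72% of all genes did). That gene was Ptpn2, a phosphatase that dampens JAK-STAT signalling, with an adjusted p of 0.0437 in limma and a 24-h peak at ZT 22.0 (1.19-fold, adjusted p = 0.0102). Its call for a difference among times was lost without any of 17 single arrays. The receptor genes Ifngr1 and Ifngr2, the kinases Jak1 and Jak2, the factors Stat2, Irf2, Irf8 and Irf9, the inhibitors Socs1 and Socs3, and Il12rb1 and Il18 were not called in any of the 3 tests. Stat2 (0.48) and Irf9 (0.39), partners in the complex ISGF3, were the list's highest values on ZT11 replicate 3. Their r with the mean of the 8 genes was 0.60 and 0.66 with that array, and 0.15 and 0.36 without it.

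As a list, the other GTPases of both families varied with the 8 genes among arrays, while single genes were less alike. The mean of 13 measured genes correlated with the mean of the 8 at r = 0.86 within times (rho = 0.77), and at 0.71 without ZT11 replicate 3, on which it was at its highest (0.42). Values were not scaled for this mean, and F830016B08Rik was at 2.39 on that array. Single genes had a median r of 0.47, with 11 of 13 above 0, and a median of 0.23 without that array. Among all genes outside the 8, 49.9955% had an r above 0. Gbp4 (r = 0.71), Gbp7 (0.71), Gbp9 (0.67) and Gbp5 (0.53) were alike in part, with 0.72, 0.57, 0.62 and 0.20 without that array. Gbp6 (0.15), Gbp2b (-0.069), Irgq (-0.18), Irgc1 (0.17), Gbp11 (0.47), Gbp8 (0.41) and 9930111J21Rik2 (0.24) were less so. A 24-h rhythm was called in 2 of 13, where 7.61% of all genes were called. They were Gbp5 (peak ZT 12.6, 1.21-fold, adjusted p = 0.0233 in limma) and Gbp8 (peak ZT 5.95, 1.11-fold, adjusted p = 0.0252). Gbp8 was also lower in the dark, by -0.11 ± 0.027 (SE, adjusted p = 0.0163). The rhythm of Gbp5 was lost without ZT23 replicate 2 or 3 (adjusted p up to 0.053), and that of Gbp8 without ZT07 replicate 2 or 3 or ZT19 replicate 2 (up to 0.0576).

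The mean of 12 measured genes for other chemokines and the receptor Cxcr3 had an r of 0.49 with the 8 genes, and 0.18 without ZT11 replicate 3, its second highest array. In limma 0 of the 12 were called for time, rhythm or dark against light, where 4.72%, 7.61% and 4.39% of all genes were, and 1, 2 and 0 had an unadjusted p below 0.05. Cxcl11, the third CXCR3 ligand, was at -0.080 on ZT11 replicate 3 and had an r of 0.021 with the 8 genes, and the receptor Cxcr3 had 0.40 (0.30 without that array). The others had r from -0.16 in Cxcl12 to 0.51 in Cxcl1, the remainder being Cxcl16, Ccl2, Ccl5, Ccl7, Ccl8, Ccl12, Cxcl13 and Cx3cl1.

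Antigen presentation genes, which interferon-gamma is known to raise, varied with the 8 genes among arrays in part. The mean of 15 class I genes had an r of 0.76 with the 8, and 0.72 without ZT11 replicate 3, and the mean of 10 class II genes 0.75 in both. Single genes were less alike. Over the class I genes the median r was 0.25, with 12 of 15 above 0. Over the class II genes it was 0.47, with 6 of 10 above 0. The latter share is near the 49.9955% of all genes outside the 8 that had an r above 0. Without that array both medians were 0.24. The class I gene H2-T23 was at -0.43 and the class II transactivator Ciita at -0.31. Of the class I genes 3 fell in the dark and 0 rose, against background shares of 2.49% and 1.89%. They were H2-K1, a classical class I heavy chain (-0.29 ± 0.072, SE, adjusted p = 0.0222 in limma, peak ZT 10.1, 1.51-fold), H2-Q4 (-0.19 ± 0.035, adjusted p = 0.0027), and the peptide transporter Tap1 (-0.24 ± 0.064, adjusted p = 0.0342). Their rhythm was called as well, and all 3 peaked in the light, where 3.83% of all genes were called so. The dark call of Tap1 was lost without any of 12 single arrays (adjusted p up to 0.0632). H2-K1 followed the 8 genes within times (r = 0.70, and 0.67 without ZT11 replicate 3), whereas H2-Q4 did not (0.014 and 0.094). No class II gene was called in limma for time, rhythm or dark against light, where 4.72%, 7.61% and 4.39% of all genes were. In these 3 tests, 1, 0 and 1 class II genes had an unadjusted p below 0.05.

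The remaining interferon targets were more varied. Of 18 other interferon-gamma targets, 3 had a rhythm, all with a peak in the dark, where 3.78% of all genes were called so. They were Lgals9 (peak ZT 19.2, 1.67-fold, adjusted p = 0.0011 in limma), the complement inhibitor Serping1 (ZT 16.8, 1.29-fold, 0.0015) and the adhesion molecule Vcam1 (ZT 14.6, 1.22-fold, 0.0218). The rhythm of Vcam1 was lost without ZT15 replicate 2 (adjusted p = 0.0534). Of the 18, 2 were higher in the dark and 0 lower, where 1.89% and 2.49% of all genes were. The mean of the list had an r of 0.68 with the 8 genes, and 0.51 without ZT11 replicate 3. The 30 type I interferon targets had a mean with r = 0.65, which was 0.19 without that array. Of the 30, 1 (Samd9l) was called for time and rhythm, where 4.72% and 7.61% of all genes were. In that list 1 gene, Ddx60, fell in the dark (-0.24 ± 0.068, SE), where 2.49% of all genes did. Oas2 was the 1 that rose (0.20 ± 0.054), where 1.89% of all genes did. These calls were lost without any of 16 and 11 single arrays, with adjusted p in limma of up to 0.082 and 0.0662.

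**Figure D4:**
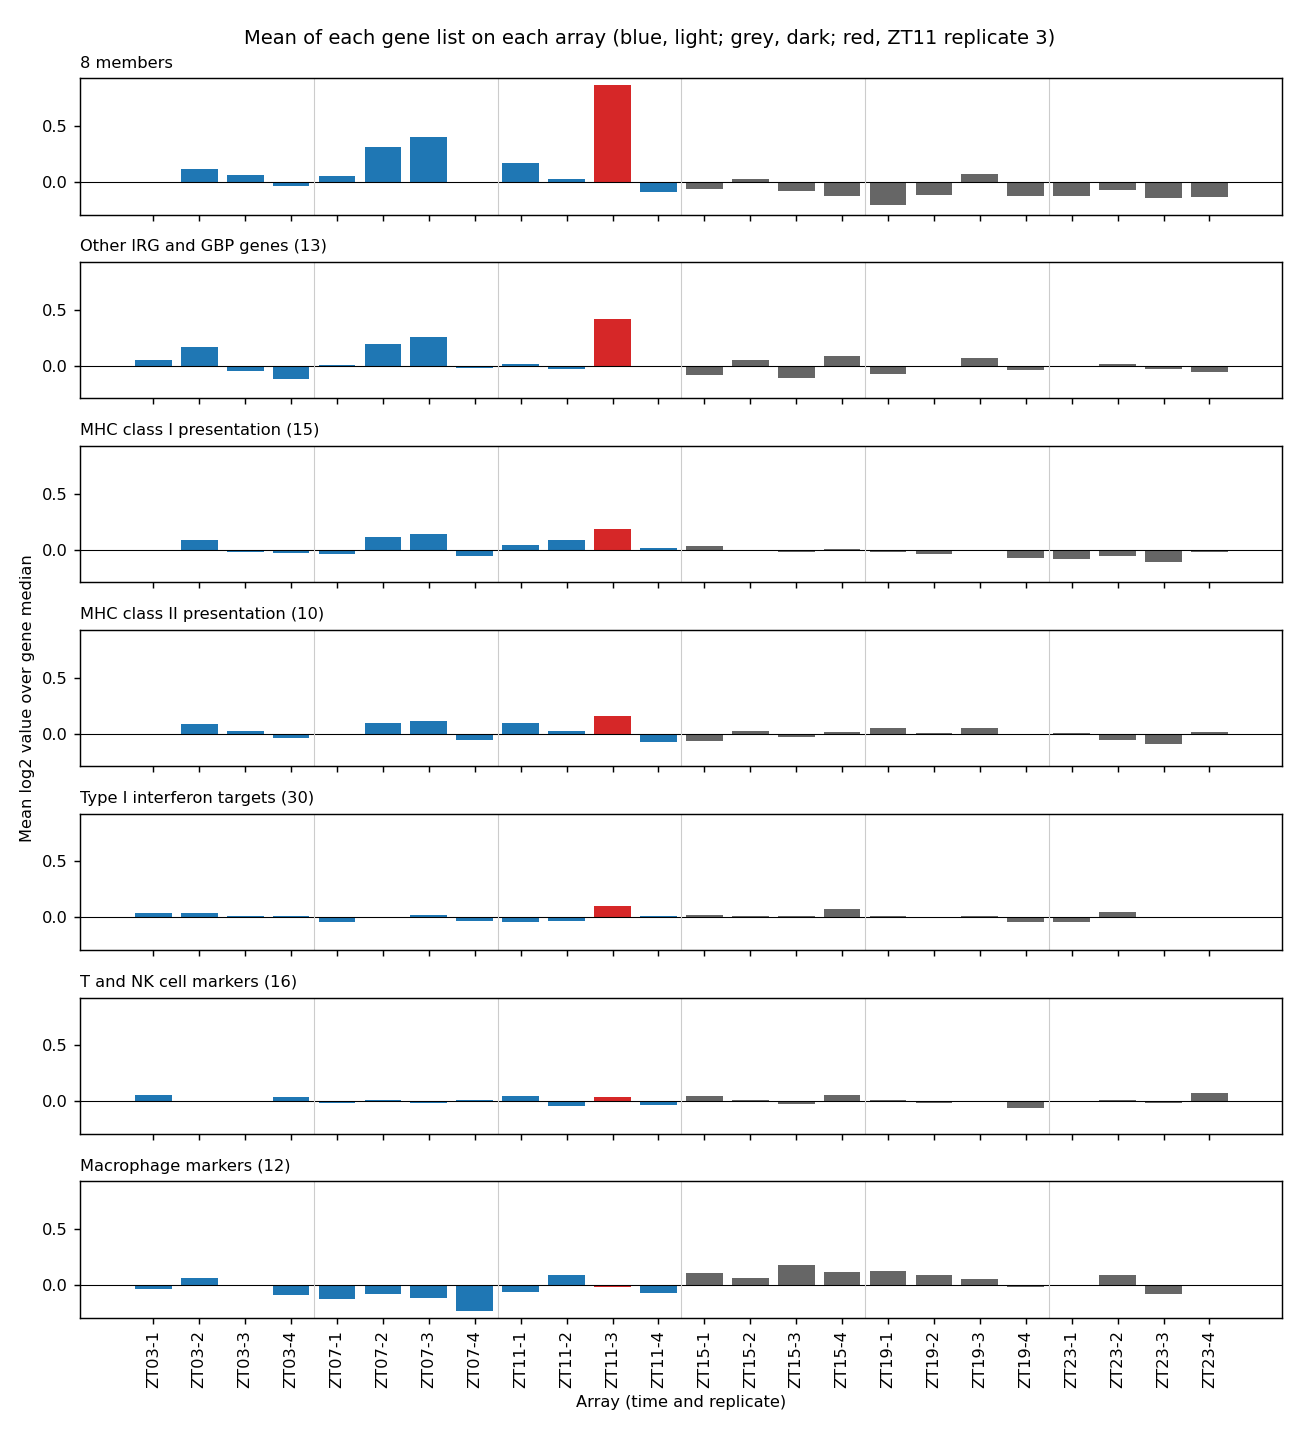
Mean log2 value over the gene medians (y axis, the same scale in each panel) on each of 24 arrays (x axis, time and replicate) for 8 genes and 6 gene lists, with light arrays in blue, dark arrays in grey and ZT11 replicate 3 in red. That array is at 0.87 for the 8 genes, 0.42 for other GTPases and 0.19 for class I genes, and at 0.040 for T and natural killer cell markers.

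The lists of cell markers were not at their highest on ZT11 replicate 3. The mean of 16 T and natural killer cell markers was 0.040 there, the sixth highest of 24 arrays, in a range from -0.058 to 0.075, and its r with the 8 genes was 0.26, or 0.032 without that array. The mean of 12 macrophage markers was -0.018, the fifteenth highest, in a range from -0.24 to 0.18, with r = 0.14 and 0.29. The 6 lists of interferon and presentation genes were at their highest there: 0.096 for the signalling list, 0.42 for other GTPases, 0.19 for class I, 0.16 for class II, 0.12 for other interferon-gamma targets and 0.11 for type I targets. B cells (-0.29), neutrophils (-0.34), endothelium (-0.37), fibroblasts (-0.16), cardiomyocytes (-0.17) and platelets (-0.096) had r below 0 with the 8 genes. Monocytes and dendritic cells (0.080), atrial cardiomyocytes (0.14), the 1 measured red cell gene (0.16) and thymus and lymph node genes (-0.0070) were near 0 or low.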

How the data were processed

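The deposited table gives 1 log2 value per probe set and array, 34351 probe sets on 24 arrays. That the values are log2 is read from the values, since the base is not stated, and each probe set has a median of 0 over the arrays. Per the labels, total RNA was extracted with TRIzol and biotin-labelled cRNA was hybridised by the standard Affymetrix protocol. How the authors corrected, summarised and normalized the signals is not given in the sources used here. Depth does not apply to arrays, and the 4 arrays per time limit the precision. Probe sets with 1 gene in GEO's platform annotation (23521 of 34351, where 1814 name several and 9016 none) were averaged per gene, giving 22180 genes. RefSeq's gene table held 23328 of them and changed 0 symbols.

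Arrays were grouped by the time in their labels. Differences among times, a 24-h cosine and dark against light were fitted with limma 3.58.1 in R 4.3.3 over all genes (18 residual degrees of freedom), with Benjamini-Hochberg adjustment at 0.05, after the procedure was tested on simulated data. A lost call is a gene that no longer passes 0.05. Correlations use residuals from the time means and were computed with numpy 2.4.6, pandas 2.3.3 and scipy 1.17.1 in Python 3.11.15. Peak-to-trough ratios are 2 to the power of 2 amplitudes.

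The members, the 7 pathway lists and the 12 lists of cell markers were chosen with earlier results of these data known. The plan was for 9 members, and 8 were measured. Named were the members, every measured gene of the signalling, GTPase and chemokine lists, up to 4 genes of each other list with the smallest p among times, and the 12 most and 4 least alike genes that are not predicted ones. Other list genes called in a test and the genes past a log2 value of 1 were named after their values were seen. Alternatives were median centring, quantile normalization, array weights, a robust fit, single probe sets, a replicate block, leaving out arrays, Spearman's rho and removal of a principal component. Leaving out ZT11 replicate 3 from the lists and the likeness ranking and leaving out 2 arrays were chosen after seeing the data. So were using 6 members and setting apart Igtp, Irgm2, Iigp1 and Gbp10.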

Additional observations from a re-analysis of the deposited data

Results flagged for a closer look

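In 3 of 48 groups of 4 arrays (8 genes at 6 times), 1 array lay so far from its neighbour that the gap, divided by the group's range, passed Dixon's critical value for 4 arrays. Chance gives about 1 such group in 20, a share close to this one. The genes were chosen with earlier results of these data known, so the 3 arrays are given as a description. Cxcl9 on ZT11 replicate 3 was at 1.00 (log2, gap over range 0.867), while the other 3 arrays of ZT11 lay between 0.19 and 0.30. Igtp on ZT15 replicate 3 was at 0.25 (0.879), above 3 arrays between -0.069 and -0.03. Iigp1 on ZT15 replicate 1 was at 0.0596 (0.830), above 3 arrays between -0.22 and -0.18. The values of Igtp and Iigp1 on ZT11 replicate 3 did not pass in their groups, whose other arrays were spread more widely.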

How the results depend on the processing

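The replicate numbers do not pair the arrays: 5 of 60 same-numbered pairs across times had a correlation above 0.1, with a mean of -0.014 against 0.0051 for 180 other pairs, and 8 of 24 arrays correlated best with one of their own number. With a replicate block, 901 genes differed among times instead of 1046, 1576 had a rhythm instead of 1688, 912 differed between dark and light instead of 973, and the mean correlation of the members was 0.37 instead of 0.43. Under the other settings these counts ran from 895 to 1278, from 1445 to 1952 and from 765 to 1271, within 1.5 times the counts given. The mean correlation ran from 0.26 to 0.49 when single arrays were left out, lowest without ZT11 replicate 3, and was 0.19 without the 2 arrays farthest out (ZT11 replicate 3 and ZT07 replicate 3). Over the 6 members other than Cxcl10 and Irf1, left out for their low correlation, it was 0.68, and 0.37 without ZT11 replicate 3. Of the 12 most alike genes, 3 remained without ZT11 replicate 3, and 8 with members scaled by their SD. Of 25 results on single list genes, 8 lost a call under at least 1 of 31 settings, and 0 reversed. Members called ranged from 1 to 2 among times, and from 2 to 3 for rhythm and for dark against light. Dim and bright genes cannot be told apart in centred values, so signal over background is unknown.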
